A study of Mus musculus with 12 samples.

Results

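Pigment cells make melanin inside melanosomes, organelles that mature from the endosomal system and then carry their own enzymes, fibrils, channels and receptors. In the eye the pigment lies in the retinal pigment epithelium behind the photoreceptors, in the pigmented layers of the ciliary body and iris, and in melanocytes of the choroid, the last of these being derived from the neural crest. The melanocyte transcription factor Mitf binds an E-box known as the M-box in promoters of several melanin genes and is needed for the formation of the pigment epithelium.

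The expression of 9 mouse genes of melanin synthesis and of the melanosome was followed across all arrays of the series. They were taken by name: Tyr, Tyrp1, Dct, Mlana, Pmel, Slc45a2, Oca2, Gpr143 and Mitf. These genes were read by 12 probes, of which 11 passed the filter on dim probes, and all 9 were among the 23237 genes tested, 15592 of which had a symbol. Mice were male C57BL/6 aged 5 weeks. Into the vitreous of the right eye went phosphate-buffered saline (PBS), gold particles of 20 or 100 nm, or silicate particles of 20 or 100 nm, and the retina was taken 7 days later. Each tube of RNA pooled 4 retinas, with 3 tubes for each of the 4 particle groups, so that a value is the mean of several animals. The strain field of the PBS channel carries numbers that run up to C57BL/12 on the silicate arrays, and C57BL/6 of the protocol was used here. The size is written in nM in the sample annotation and in nm in the protocol, and the second was used.

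Each of the 12 arrays set a particle tube, labelled with Cy5, against a PBS tube, labelled with Cy3, and the dyes were never exchanged. Any bias of a probe towards one dye thus enters all ratios to PBS alike, and drops out when 2 particle groups are compared. Ratios are log2 of particle over PBS, so that 1 is a doubling. Levels are normalized log2 intensities of a single channel, and they are set against each other only within a probe. The arrays lay on 3 slides, and the replicate number is the slide number. The 4 Cy3 readings of a slide were taken as 1 PBS tube, which the labels do not state. All 8 rod markers, such as rhodopsin, were kept on the arrays, with median levels between 15.9 and 17.1 over all channels. The rod median log2 ratio was between 0.26 and 0.61 on slide 1 and between -0.025 and 0.061 on slide 2. On slide 3 it was 0.20 and 0.24 with gold, and -0.97 and -1.01 with silicate. The retinal pigment epithelium markers were measured too, 9 of 10 of them, whereas Best1 was not well above background on any array. Macrophage and microglia markers stood apart by slide. Their median log2 ratio was between -2.82 and -1.94 on slide 1, between 0.28 and 1.13 on slide 2, and 3.25 and 3.54 on the silicate arrays against -0.49 and -0.84 on the gold arrays of slide 3. In the PBS readings of slides 1, 2 and 3 the median level of these markers was 12.9, 9.25 and 10.5. That of the neutrophil genes S100a8 and S100a9 was 16.3, 7.01 and 7.94. The PBS side of slide 1 thus stood apart, and it enters every ratio of that slide. For these reasons the mean contrast is also given without slide 1, and results that rest on slide 3 without its silicate arrays.

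The proximal promoters of the pigment genes show what several of them share in sequence. RefSeq promoter windows of build GRCm38.p6 were at hand for Tyr, Tyrp1, Dct, Oca2 and Mitf. In the 250 bases before the start of transcription, the M-box core TCATGTG was searched on both strands, together with the shorter E-box letters CATGTG that lie within it and the other E-box CACGTG. The M-box core was found for 3 of the 5 genes, Tyr, Tyrp1 and Dct, and in 3.25% of all 32851 windows. Oca2 held CATGTG 186 bases before its start but not the longer letters, and 12.3% of all windows held CATGTG. None of the 3 Mitf windows held either, and CACGTG, present in 6.02% of all windows, was in none of the 7 windows. Below are 120 bases of each of the 3 promoters with the core, and of Slc24a5 and Tspan10, the 2 genes whose ratios ran closest to those of the 9 genes (described further on). All are written 5′ to 3′ on the strand of the gene, with the M-box core, or its reverse complement, in capitals.
Tyr: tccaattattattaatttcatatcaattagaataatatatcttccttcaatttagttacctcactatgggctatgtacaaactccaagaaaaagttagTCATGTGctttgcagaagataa
Tyrp1: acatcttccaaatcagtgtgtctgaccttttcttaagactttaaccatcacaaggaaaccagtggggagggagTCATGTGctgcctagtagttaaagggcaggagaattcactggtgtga
Dct: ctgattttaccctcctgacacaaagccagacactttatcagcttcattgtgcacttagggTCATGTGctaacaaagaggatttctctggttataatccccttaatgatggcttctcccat
Slc24a5: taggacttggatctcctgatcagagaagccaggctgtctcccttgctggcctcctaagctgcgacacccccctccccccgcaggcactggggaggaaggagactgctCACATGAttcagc
Tspan10: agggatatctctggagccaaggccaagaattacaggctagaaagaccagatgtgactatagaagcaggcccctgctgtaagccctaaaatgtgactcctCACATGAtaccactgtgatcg
The Tyr window lies at chr7:87493513-87493632 on the minus strand, with the core from base 22 before the start. The Tyrp1 window lies at chr4:80834093-80834212 on the plus strand, with the core from base 47 before the start. The Dct window lies at chr14:118052338-118052457 on the minus strand and covers bases 211 to 92 before the start, with the core from base 151. Dct had a further match on the opposite strand at base 232, outside the printed stretch. In Slc24a5 (chr2:125068007-125068126, plus strand) and Tspan10 (chr11:120442511-120442630, plus strand) the match was on the opposite strand, from bases 13 and 21 before the start. These are matches of letters in a window, and binding was not measured.

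Pigment gene transcripts were more abundant in most particle tubes than in the PBS tube of the same slide. In the mean of the 4 particle groups against PBS, 7 of the 9 genes rose: Tyrp1, Dct, Mlana, Pmel, Oca2, Gpr143 and Tyr, the first 4 by 3.21- to 4.87-fold and the others by 1.46- to 1.93-fold. Slc45a2 and Mitf did not pass the threshold of an adjusted p of 0.05 (limma, Benjamini-Hochberg over all genes). Of all genes, 8.43% were called higher in this comparison, and the median log2 ratio over all genes was -0.0074 against 0.95 over the 9. With the slide as a random block, a fit in which arrays of a slide are not independent, none of the 9 passed, with adjusted p between 0.249 and 0.689. In that fit 1.46% of all genes were called higher. There 6 of the 9 had an unadjusted p under 0.05, for which the share of all genes was not computed. That fit uses a single within-slide correlation for all genes, and so allows only in part for genes that differ widely between slides. The slide means of Dct, for example, were 4.04, 2.53 and 0.28. Without slide 1, and without slide 2, 0 of the 9 passed in limma, and without slide 3 it was 7. The estimates of the 4 genes with the highest ratios moved with slides 1 and 3. Without slide 1 the log2 ratio was 1.72 for Tyrp1, 1.40 for Dct, 1.44 for Mlana and 1.20 for Pmel, and without slide 3 it was 2.96, 3.29, 2.80 and 2.46 in the same order. In bulk tissue, more cells of a type and more RNA per cell cannot be told apart.

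**Figure D1:**
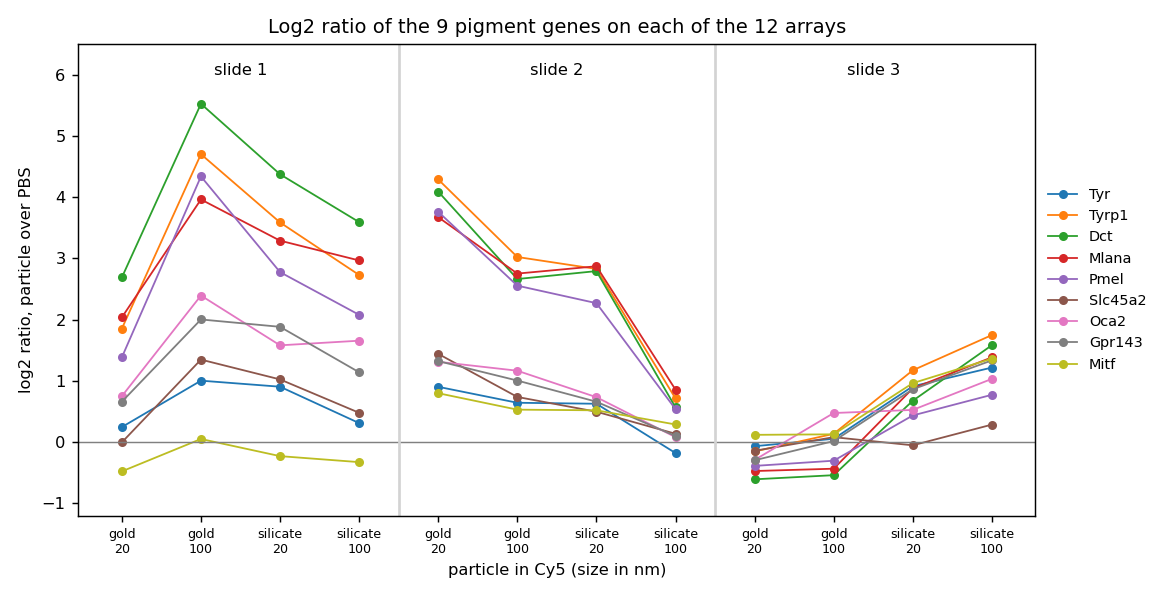
Log2 ratio of particle over PBS (y axis) for the 9 pigment genes on the 12 arrays (x axis: particle and size in nm), in slide order, with 1 line per gene within a slide and 1 array per point. The lines of a slide mostly rise and fall together, in steps of unlike size, and Dct reaches 5.52 with gold 100 nm on slide 1. On slide 3 most genes lie near or below 0 with gold and above 0 with silicate.

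Of the enzymes, tyrosinase (Tyr) carries out the first and rate-limiting step from tyrosine to melanin. Its level in the PBS tubes of slides 1, 2 and 3 was 7.02, 7.41 and 7.77. On the same slides its log2 ratio was 0.25, 0.90 and -0.067 with gold 20 nm, 1.00, 0.64 and 0.054 with gold 100 nm, 0.90, 0.63 and 0.91 with silicate 20 nm, and 0.31, -0.18 and 1.22 with silicate 100 nm. Ratios were above 0 on 10 of 12 arrays, and 8 of 12 particle tubes lay above the highest PBS tube. The mean log2 ratio was 0.55 ± 0.46 (SD, n = 12 arrays; SE 0.13; adjusted p = 0.0238, limma), and 0.474 was the adjusted p with the random block. A further Tyr probe, printed in 10 spots, was not well above background on any array and had ratios between -0.13 and 0.27.

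Tyrp1, the tyrosinase-related protein that acts later in eumelanin synthesis, stood at 7.95, 9.12 and 10.58 in the PBS tubes of slides 1 to 3. Its log2 ratio was 1.85, 4.29 and -0.15 with gold 20 nm, 4.70, 3.02 and 0.14 with gold 100 nm, 3.59, 2.83 and 1.17 with silicate 20 nm, and 2.73, 0.71 and 1.75 with silicate 100 nm. All arrays but that of gold 20 nm on slide 3 were above 0. The mean was 2.22 ± 1.57 (SD, n = 12; SE 0.47), a 4.65-fold difference, with an adjusted p of 0.0134 in limma and of 0.252 with the random block.

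Dct, the dopachrome tautomerase between the other two enzymes, gave the widest spread of ratios. PBS tubes were at 10.07, 11.78 and 13.88. The log2 ratio was 2.69, 4.09 and -0.61 with gold 20 nm, 5.52, 2.66 and -0.54 with gold 100 nm, 4.37, 2.79 and 0.68 with silicate 20 nm, and 3.59, 0.57 and 1.58 with silicate 100 nm. Slide 3 carried both negative values, both on gold arrays, and the highest PBS tube. The mean was 2.28 ± 1.97 (SD, n = 12; SE 0.60; adjusted p = 0.0322 in limma and 0.300 with the random block). The second Dct probe gave 2.29, with ratios from -0.53 to 5.44.

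**Figure D2:**
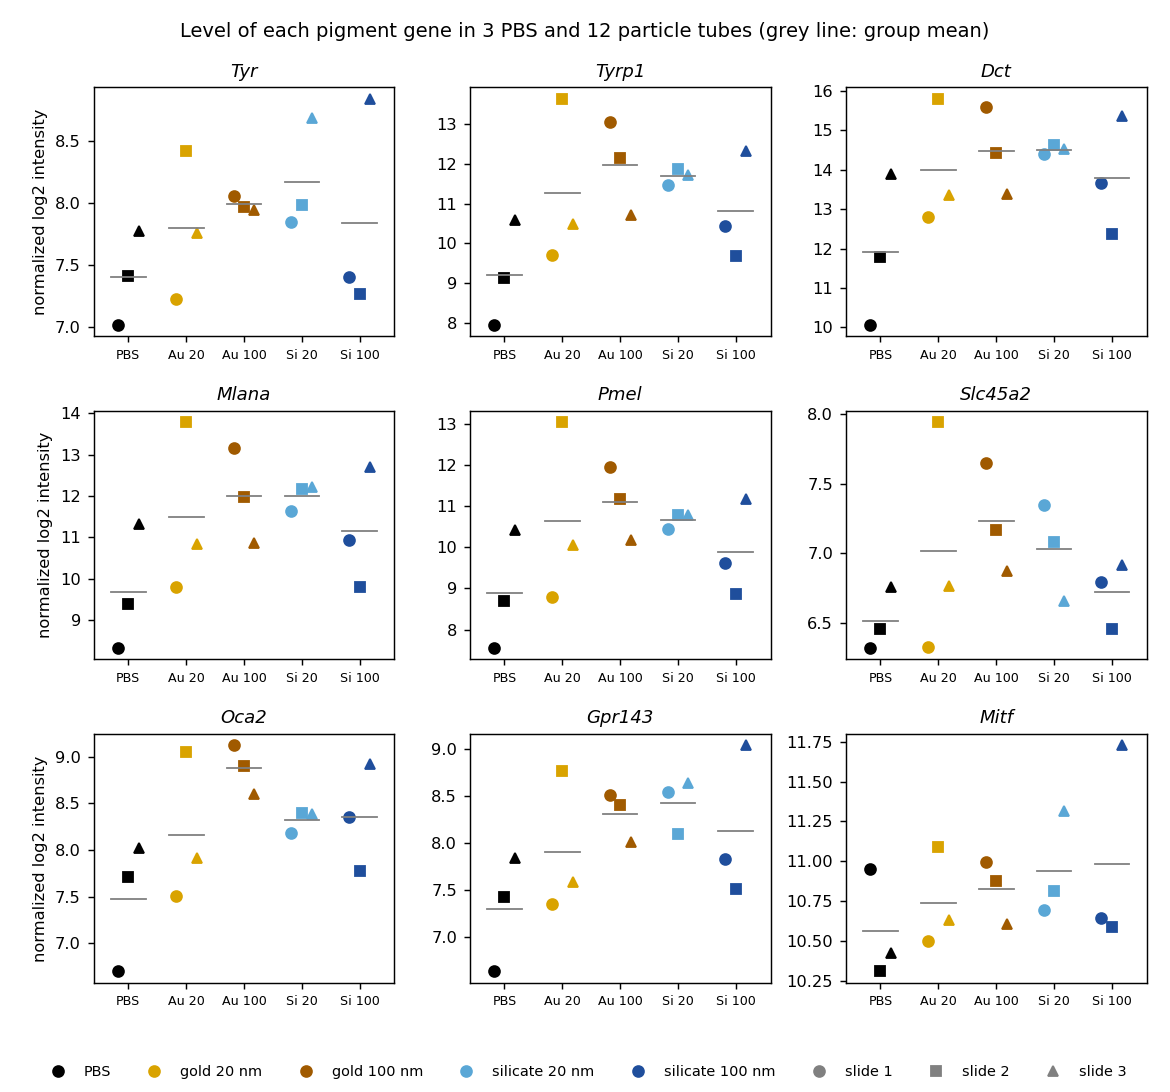
Normalized log2 intensity (y axis) of each pigment gene in the 3 PBS tubes (Cy3, mean of 4 readings) and the 12 particle tubes (Cy5), by group (x axis: PBS, gold (Au) and silicate (Si) with the size in nm), with 1 point per tube, the slide as its symbol and the group mean as a grey line. In all genes but Mitf the PBS tubes rise from slide 1 to slide 3, and the PBS tube of slide 3 lies within the range of the particle tubes.

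Of the proteins that build and mature the organelle, Pmel forms the amyloid fibrils on which melanin is laid down. PBS tubes were at 7.55, 8.69 and 10.41. The log2 ratio was 1.38, 3.76 and -0.39 with gold 20 nm, 4.34, 2.55 and -0.30 with gold 100 nm, 2.78, 2.27 and 0.44 with silicate 20 nm, and 2.08, 0.54 and 0.77 with silicate 100 nm. The pattern was that of Tyrp1, and 10 of 12 arrays were above 0. The mean was 1.68 ± 1.53 (SD, n = 12; SE 0.45; adjusted p = 0.0360 in limma and 0.358 with the random block).

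Mlana, a small membrane protein of early melanosomes that Pmel maturation depends on, had PBS levels of 8.32, 9.39 and 11.33. Its log2 ratio was 2.04, 3.67 and -0.47 with gold 20 nm, 3.96, 2.75 and -0.43 with gold 100 nm, 3.29, 2.87 and 0.88 with silicate 20 nm, and 2.97, 0.86 and 1.38 with silicate 100 nm. Again the gold arrays of slide 3 alone were below 0. The mean was 1.98 ± 1.52 (SD, n = 12; SE 0.46; adjusted p = 0.0202 in limma and 0.249 with the random block).

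Oca2 and Gpr143 had lower ratios than Tyrp1, Dct, Mlana and Pmel, though not lower than Tyr. Oca2, a melanosomal transport protein that affects the pH of the organelle, had PBS levels of 6.70, 7.71 and 8.02, and log2 ratios of 0.75, 1.31 and -0.29 with gold 20 nm, 2.39, 1.17 and 0.47 with gold 100 nm, 1.58, 0.73 and 0.53 with silicate 20 nm, and 1.66, 0.081 and 1.03 with silicate 100 nm. Its mean was 0.95 ± 0.74 (SD, n = 12; SE 0.21; adjusted p = 0.0160 in limma and 0.271 with the random block), and 9 of 12 particle tubes lay above the highest PBS tube. Gpr143, the melanosomal G protein-coupled receptor of ocular albinism, had PBS levels of 6.64, 7.42 and 7.84. Its log2 ratios were 0.66, 1.32 and -0.30 with gold 20 nm, 2.00, 1.00 and 0.016 with gold 100 nm, 1.88, 0.66 and 0.86 with silicate 20 nm, and 1.14, 0.099 and 1.33 with silicate 100 nm. Gpr143 had a mean of 0.89 ± 0.71 (SD, n = 12; SE 0.21; adjusted p = 0.0207 in limma and 0.370 with the random block). Both genes were above 0 on 11 of 12 arrays.

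Slc45a2, a transporter of the melanosome membrane, was dim, with its probe well above background in 6 of 12 PBS and 10 of 12 particle channels. PBS tubes were at 6.32, 6.46 and 6.76. The log2 ratio was -0.0041, 1.44 and -0.14 with gold 20 nm, 1.35, 0.74 and 0.081 with gold 100 nm, 1.02, 0.50 and -0.052 with silicate 20 nm, and 0.48, 0.14 and 0.29 with silicate 100 nm. Its mean was 0.49 ± 0.54 (SD, n = 12; SE 0.16; adjusted p = 0.0719 in limma and 0.540 with the random block). From the authors' deposited table the mean was 1.51 (adjusted p = 0.0366, limma), and those of Oca2 and Gpr143 were larger there too, at 1.50 and 1.42.

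Mitf did not follow the others over the slides. PBS levels were 10.95, 10.31 and 10.43, highest on slide 1, where the other 8 genes were lowest. The log2 ratio was -0.48, 0.80 and 0.12 with gold 20 nm, 0.051, 0.53 and 0.13 with gold 100 nm, -0.23, 0.52 and 0.96 with silicate 20 nm, and -0.33, 0.29 and 1.36 with silicate 100 nm. On slide 1 its mean over the 4 arrays was -0.25, against 4.04 for Dct. The mean over all arrays was 0.31 ± 0.55 (SD, n = 12; SE 0.17; adjusted p = 0.241 in limma), and the second Mitf probe gave 0.25. Whether either probe tells the tissue-specific forms of Mitf apart was not checked.

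**Figure D3:**
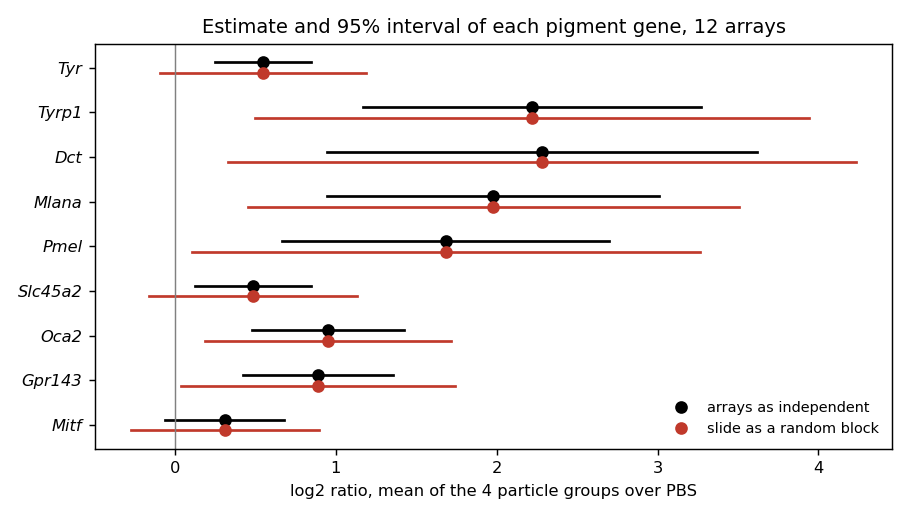
Log2 ratio of the mean of the 4 particle groups over PBS (x axis) with its 95% interval for each pigment gene (y axis), from limma with the 12 arrays as independent (black) and with the slide as a random block (red). The estimates are the same in both fits. Intervals lie above 0 for 8 genes in black and for 6 in red. The red intervals rest on a single within-slide correlation for all genes, and are too narrow for genes that differ more between slides.

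The Cy3 readings of PBS differed between the arrays of a slide for some pigment genes. The median range of the 4 readings over all genes was 0.12 on slide 1, 0.11 on slide 2 and 0.19 on slide 3. For Mlana the range was 1.42 on slide 1, where the Cy3 level ran from 7.77 to 9.19, and 1.16 on slide 2, where it ran from 8.95 to 10.12. On both slides the readings had the same order as the Cy5 level of Mlana, which ran from 9.80 to 13.15 and from 9.81 to 13.79. A range over 1 was seen in 0.685% of all genes on slide 1 and 0.28% on slide 2. Pmel on slide 2 had Cy3 readings from 8.33 to 9.28, and Tyrp1 on that slide from 8.98 to 9.35, both in the order of Cy5. Dct, with Cy5 levels from 12.38 to 15.80 on slide 2, had a Cy3 range of 0.11 there. The Cy3 readings were in the order of Cy5 for 1 of the 9 genes on slide 1, 3 on slide 2 and 0 on slide 3. The share of all genes in that order was not computed. On slide 3 the highest range of the 9 was 0.34 (Oca2). Against the lowest Cy3 reading of its slide, in place of the one on its own array, the ratio of Mlana with gold 20 nm on slide 2 was 4.84 rather than 3.67. These genes were singled out after their values were seen, and the source of the pattern was not tested.

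**Figure D4:**
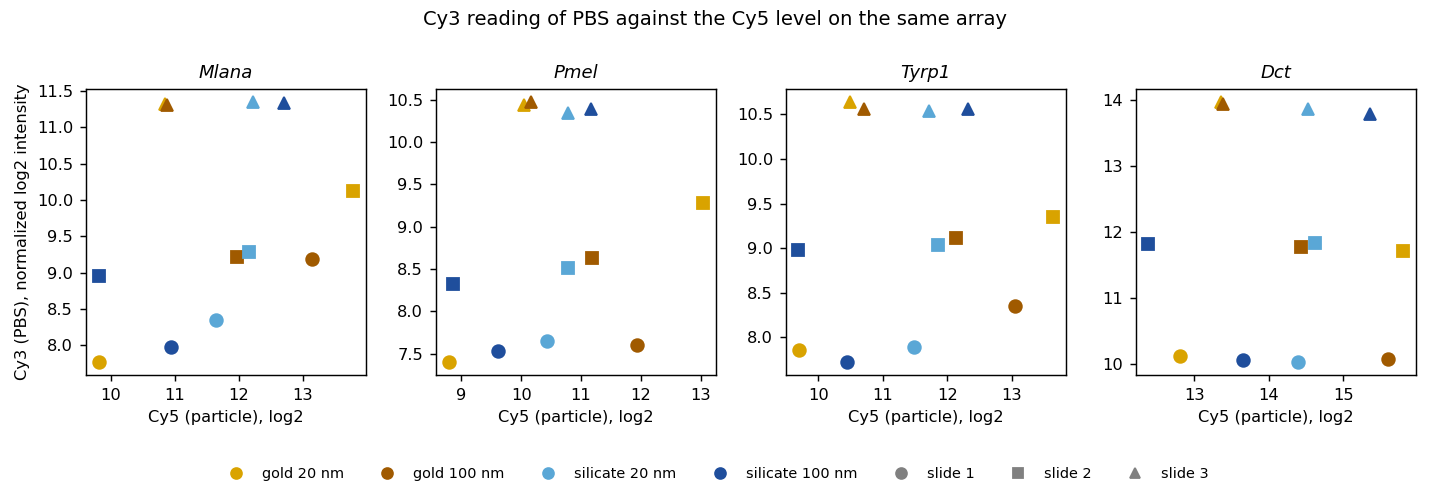
Cy3 reading of PBS (y axis) against the Cy5 level of the particle tube on the same array (x axis), both normalized log2 intensity, for Mlana, Pmel, Tyrp1 and Dct (1 point per array, colour for the group, symbol for the slide). On slides 1 and 2 the readings of Mlana climb with Cy5, while those of Dct stay within 0.11 of each other.

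No pigment gene passed in a single particle group against PBS. With gold 20 nm the estimates ran from 0.15 (Mitf) to 2.06 (Dct), and 0.641% of all genes were called higher. With gold 100 nm they ran from 0.24 (Mitf) to 2.62 (Tyrp1), with 0.831% of all genes called higher. With silicate 20 nm they ran from 0.42 (Mitf) to 2.61 (Dct), with 1.58% of all genes higher, and with silicate 100 nm from 0.30 (Slc45a2) to 1.91 (Dct), with 0.856% higher. The number of the 9 with an unadjusted p under 0.05 in limma was 0, 6, 5 and 0 in the same order. The share of all genes under that unadjusted p was not computed, so these counts cannot be weighed against it. All 36 estimates were above 0. The replicate block, which takes out slide means, ignores how the PBS tubes vary. It called Oca2 with gold 100 nm (1.34, adjusted p = 0.0412) and Mlana with silicate 20 nm (2.35, adjusted p = 0.0434). In these comparisons it called 3.82% and 5.25% of all genes higher. These 4 comparisons share the PBS tubes. The within-group spread was wide against these estimates: for Tyrp1 the SD over 3 arrays was 2.22, 2.31, 1.23 and 1.01 in the groups as ordered above.

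No difference between the materials or between the sizes of the particles passed for any pigment gene. For gold against silicate the estimates lay between -0.24 (Mitf) and 0.41 (Pmel), none of the 9 passed in limma, none had an unadjusted p under 0.05, and 0% of all genes were called. The intervals were wide: for Tyrp1 the difference was 0.18 with a 95% interval from -1.92 to 2.28, and for Tyr it was -0.17 with an interval from -0.76 to 0.43. For 100 nm against 20 nm the estimates lay between -0.13 (Mlana) and 0.37 (Oca2), with 0 of the 9 called or under an unadjusted p of 0.05, and 0% of all genes called. The interval for Tyrp1 was -2.19 to 2.01 around -0.088. A missed threshold does not show that the materials or sizes act alike. The size effects of the 2 materials did not differ past the threshold for any of the 9 (lowest adjusted p = 1.00, limma, none with an unadjusted p under 0.05, and 0% of all genes called), although every estimate of 100 nm over 20 nm was above 0 for gold (0.09 to 0.75) and all but 1 were below 0 for silicate (-0.80 to 0.024).

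The order of the materials differed from slide to slide. On slide 1 neither material lay above the other on both arrays for any of the 9 genes, where 14.2% of all genes had both gold arrays above both silicate arrays and 20.3% the reverse. On slide 2 both gold arrays were above both silicate arrays for 7 of the 9 genes and for 17% of all genes, and the reverse held for 0 of the 9 and 19.5% of all genes. On slide 3 both silicate arrays were above both gold arrays for 8 of the 9, all but Slc45a2, and for 33.6% of all genes, and the reverse held for 0 of the 9 and 29.6% of all genes. The 9 genes move together on a slide, so their counts are not 9 separate observations, and neither count was tested. For Tyrp1 gold minus silicate was 0.12 on slide 1, 1.89 on slide 2 and -1.47 on slide 3. The silicate arrays of slide 3 were those with macrophage and microglia medians of 3.25 and 3.54, and with choroid and scleral stroma medians of 1.88 and 5.04. Their rod medians were -0.97 and -1.01. The part of any of these in the pigment genes was not tested. Without these 2 arrays the mean contrast called 7 of the 9 genes, where 10% of all genes were called higher, with Tyrp1 at 2.39 and Mitf at 0.13.

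The 8 genes other than Mitf moved together. Over the 12 arrays the log2 ratios of the 7 genes without Tyr and Mitf correlated pairwise between 0.78 and 0.99, the highest between Tyrp1 and Pmel, and those pairs with Tyr between 0.58 and 0.84. Pairs with Mitf had r between -0.23 and 0.52, yet between 0.54 and 0.92 once the slide means were taken out. These are descriptions over 12 arrays that share PBS tubes within slides. The particle channel was then read alone, after normalization of all channels together. Over the 12 particle tubes the Cy5 level of Tyrp1 correlated with that of Dct at r = 0.97 (rho = 0.96, permutation p = 1e-05, the smallest that 100000 resamples can give, adjusted p = 5.67e-05 over 17 pairs), and at 0.97 without the 2 tubes farthest from the median. Within slides the same r was 0.99. Mlana and Pmel gave r = 0.99 and 0.98 with Tyrp1, and Slc45a2, Oca2, Gpr143 and Tyr gave 0.88, 0.89, 0.86 and 0.76. Mitf correlated with Tyrp1 at r = 0.67 (rho = 0.86; permutation p = 0.0163, adjusted p = 0.0308), at 0.67 without the 2 farthest tubes and at 0.75 within slides. In all, 8 of 8 genes passed against Tyrp1. The share of all genes that would pass against Tyrp1 was not computed, so this count cannot be weighed against it. Tubes of a slide are not exchangeable with those of other slides, so levels centred on their slide were also permuted within slides (13824 exact permutations, an alternative added after the data were seen). All 8 passed there too, with adjusted p from 0.000738 to 0.00938. Tyr and Mitf did not pass without slide 1, and Tyr, Mitf and Slc45a2 did not pass without slide 2. Of all 17 pairs 9 passed, 5 without slide 2 and 9 without the silicate tubes of slide 3.

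**Figure D5:**
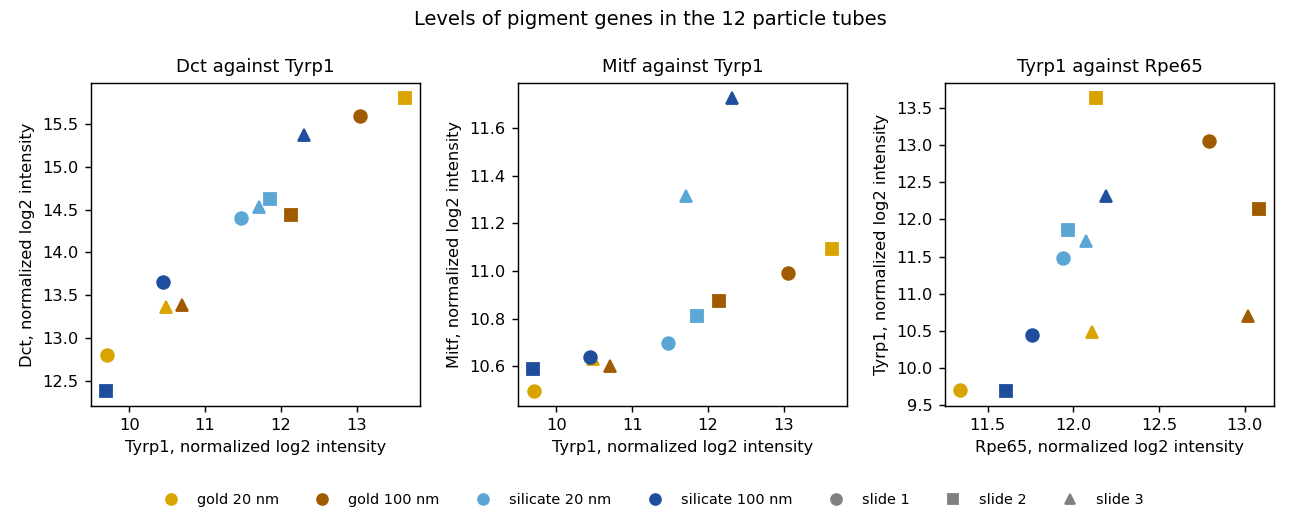
Normalized log2 intensity of 1 gene against another in the 12 particle tubes (1 point per tube, colour for the group, symbol for the slide): Dct against Tyrp1, Mitf against Tyrp1, and Tyrp1 against Rpe65. Dct follows Tyrp1 in a line (r = 0.97), the silicate tubes of slide 3 lie above the others for Mitf, and Tyrp1 spreads widely at a given level of Rpe65 (r = 0.50).

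Rpe65, the visual cycle isomerase made by the retinal pigment epithelium, had r between 0.21 (Mitf) and 0.73 (Oca2) with the 9 genes. Its r with Tyrp1 was 0.50 (permutation p = 0.102, adjusted p = 0.158), 0.79 without the 2 farthest tubes and 0.51 within slides, while the rank correlation was 0.69 (permutation p = 0.0155, adjusted p = 0.024). By Pearson's r, Oca2 alone of the 9 genes passed against Rpe65 (r = 0.73, permutation p = 0.00711, adjusted p = 0.0151, and adjusted p = 0.0445 by exact permutation within slides), and Oca2 no longer passed without slide 1 or without slide 2. By rank correlation 4 of the 9 passed: Tyr (rho = 0.62, adjusted p = 0.0499 by permutation), Tyrp1, Pmel (rho = 0.72, adjusted p = 0.0182 by permutation) and Oca2 (rho = 0.80, adjusted p = 0.00487 by permutation). From processed signals Slc45a2 passed as well (r = 0.66). The difference between the correlations with Tyrp1 and with Rpe65 was not tested. The share of all genes that would pass against Rpe65 was not computed either. Rpe65 was at 9.91, 11.55 and 12.59 in the PBS tubes of slides 1 to 3, the same order as 8 of the pigment genes.

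The markers of the tissues that hold pigment moved as follows, where limma called 8.43% of all genes higher in the mean contrast. Of 9 kept markers of the pigment epithelium visual cycle and transport, 3 rose in the mean contrast, Stra6 (0.64), Rdh5 (0.92) and Lrat (0.82), the list's median was 0.82, and none passed with the random block. The replicate block ignores how the PBS tubes vary, here and in its counts below. It called 8 of the 9 higher in the mean contrast, where it called 17.8% of all genes higher. It called 8 with gold 100 nm and 7 with silicate 20 nm, against 3.82% and 5.25% of all genes. Their median level was between 9.59 and 12.6 in PBS readings and between 11.3 and 13.1 in particle tubes. On slide 3 the list parted from the pigment genes: with silicate 20 and 100 nm its median ratio was 0.067 and -0.034, against 0.86 and 1.33 for the pigment genes. Of the 6 neural crest melanocyte markers, Sox10 alone rose, by 0.22 (adjusted p = 0.0465 in limma and 0.284 with the random block), and the list's median level lay between 8.31 and 8.77 over all tubes. The replicate block called 2 of them higher and 2 lower, where it called 17.8% of all genes higher and 17.1% lower. Of the 5 ciliary body markers Optc, Zic1 and Msx1 rose, with Optc at 2.87 and above 0 on 12 of 12 arrays. The random block gave them an adjusted p of 0.066, 0.256 and 0.421. The replicate block called 5 of 5 higher, against 17.8% of all genes. Of the 6 choroid and scleral stroma markers none passed, with a list median of 0.82. Those with an SD of at least 0.5 over the arrays had r between -0.15 and 0.19 with the mean of the 9 pigment genes. With the slide means taken out, r was between 0.53 and 0.88. For pigment epithelium markers with that SD, the ranges were 0.70 to 0.81 and 0.36 to 0.74. The part of these tissues in the pigment gene ratios was not tested.

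The wider machinery of the melanosome, 57 genes in 5 lists of which 53 were kept, held 6 genes called higher in the mean contrast and 0 lower. That is 11.3% of the 53 higher, close to the 8.43% of all genes called higher, and 6.34% of all genes were called lower. Of the 8 kept pigment transcription factors Sox10 rose, and of the 7 kept signals and receptors, which include Kit and Mc1r, none did. Of the 8 channels and transporters none passed. Slc24a5, the melanosomal exchanger of sodium and calcium, had a log2 ratio of 0.54 ± 0.53 (SD, n = 12) and an adjusted p of 0.0537. Of 23 genes of melanosome assembly 3 rose: the protease gene Bace2 (1.31; 0.53 by its other probe), the Rab GTPase Rab38 (1.04) that routes Tyr and Tyrp1 to melanosomes, and Rabggta (0.22), a subunit of the enzyme that prenylates Rabs. Rab38 was above 0 on 12 of 12 arrays, between 0.022 and 1.84, with an adjusted p of 0.00281 in limma and of 0.213 with the random block. Of the 7 kept transport genes 2 rose, the motor Myo5a (0.38) and the Rab27 effector Sytl2 (0.29). Rab27a had 0.22 with an adjusted p of 0.0974, and Mlph was not well above background in any PBS channel. None of the 53 passed with the random block. The replicate block called 9 higher and 7 lower, 3 of the latter in assembly and 2 among signals and receptors, where it called 17.8% of all genes higher and 17.1% lower. The medians of the 5 lists were between -0.051 and 0.16.

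The genes most like the pigment genes were sought among 2708 genes whose ratios had an SD of at least 0.5 over the arrays, by Pearson correlation with the mean of the 9 over 12 arrays. Tspan10, a tetraspanin, came first (r = 0.98) and Slc24a5 second (r = 0.96), followed by Ociad2 (0.96), Gsta1 (0.90), Zfp185 (0.90), Kcnj13 (0.89), Gsta3 (0.89), Ptgds (0.89), Cpxm2 (0.89) and the transcript ENSMUST00000032737 (0.88). Gsta1 and Gsta3 are glutathione transferases with near-identical relatives, so their probes may read more than 1 gene. Tspan10 was at 7.26, 8.13 and 8.82 in the PBS tubes and between 8.33 (gold 20 nm, slide 1) and 9.98 (gold 20 nm, slide 2) in the particle tubes, the same tubes as the extremes of Slc24a5, at 8.41 and 10.21. With the slide means taken out, r was 0.98 for both. Of the 9 of these 10 genes with a promoter window, 3 held the M-box core, Tspan10, Slc24a5 and Kcnj13, a potassium channel of the pigment epithelium. The core was in 3.25% of all 32851 windows. The ratios used to pick these genes share PBS tubes within slides, and a link of the core to the ratios was not tested.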

How the data were processed

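The deposited scanner files hold intensity per spot and channel, read out by the authors with Agilent software whose version is 11.0.1.1 per the file headers and 9.3.2.1 per the submitters' processing notes. The log10 ratio in the same deposited files gave the scale of the authors' value table, which holds log2 ratios of Cy5 over Cy3, with centring unknown and column medians between 0.0163 and 0.114. Median signals were corrected with normexp (offset 50) and loess in limma 3.58.1 (R 4.3.3), with the 1377 control spots at weight 0, and single channels were scaled by Aquantile. Probes stayed in if either channel was well above background throughout the 3 arrays of some group. The brightest kept probe stood for its gene. Names came from RefSeq by accession (26055 of 32334 matched), and the build of the arrays is mm9 per the file headers, so no array coordinates are given.

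A single fit over 12 arrays with 4 group means was tested with lmFit and eBayes, two-sided, and p-values were adjusted by Benjamini-Hochberg over the 23237 genes. P-values measure the spread between tubes only. In the mean contrast this fit counts 12 arrays as independent, although with 1 PBS tube per slide they share 3 PBS tubes. Its p-values and SE there do not take in the full spread between PBS tubes. The random block allows for that sharing only in part, since it uses a single correlation of 0.494 within slides for all genes. Genes that differ more between slides than this get intervals that are too narrow. The replicate number pairs the arrays, since the headers show a shared slide. Deviations from group means correlated across genes between 0.889 and 0.934 on slide 1, 0.0816 and 0.831 on slide 2, and 0.555 and 0.919 on slide 3. The place on the slide and the group cannot be told apart. Correlations used permutation with 100000 resamples, or all 13824 permutations within slides (scipy, Python). Alternatives were the slide as a replicate or random block, other signals, centring, filters and probe rules, and left-out replicates. The members, lists and tests were chosen with earlier results of these data known. The genes named are the 9, those of the lists that passed (up to 4 per list and comparison) with Slc24a5, Rab38, Rab27a, Mlph and Sox10, and the 10 most like the 9. The fit was tested on simulated data.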

Additional observations from a re-analysis of the deposited data

How the results depend on the processing

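With the slide as a random block the mean of the 4 groups against PBS called 0 of the 9 genes in place of 7, and 0 to 7 when a replicate number was left out. The replicate block, which ignores how the PBS tubes vary, called 8 there, and 1 gene with gold 100 nm and 1 with silicate 20 nm in place of 0. It changed no other count of the 9. Among all genes the mean contrast called 3430, against 8089 with the replicate block, 393 with the random block, 2187 from processed signals, and 960, 267 and 2111 without replicates 1, 2 and 3. Of the 17 level correlations 9 passed, and 5 to 9 when replicates were left out. By rank correlation it was 12, and by exact permutation within slides 9 (both added after seeing the data). Of the 11 counts, 9 were 0, and 106 of their 108 alternatives were 0 too, which says nothing on stability. Of the 19 alternatives of the other 2 counts, 15 were within 1.5 times. Estimates between particle groups turned sign easily. Gold against silicate was -0.023 for Dct in the deposited value table (0.039 otherwise), and 100 nm against 20 nm was 0.0080 for Pmel with median centring (-0.043 otherwise). The cause was not tested. When replicates were left out, gold against silicate ran from -0.53 to 0.28 for Tyr, -0.67 to 1.00 for Tyrp1, -0.79 to 0.91 for Dct, -0.86 to 0.61 for Mlana, -0.26 to 1.09 for Pmel, -0.11 to 0.35 for Slc45a2, -0.37 to 0.39 for Oca2, -0.71 to 0.30 for Gpr143 and -0.49 to 0.16 for Mitf. Likewise 100 nm against 20 nm ran from -0.25 to 0.15 for Tyr, -0.63 to 0.71 for Tyrp1, -0.67 to 0.76 for Dct, -0.60 to 0.54 for Mlana, -0.63 to 0.67 for Pmel, -0.13 to 0.34 for Slc45a2, -0.10 to 0.35 for Gpr143 and -0.037 to 0.21 for Mitf. Against PBS, signs turned for Slc45a2 with gold 20 nm (-0.073 to 0.72), and for Mitf with gold 20 nm (-0.18 to 0.46) and silicate 100 nm (-0.019 to 0.83). The correlation of Mitf with Rpe65 ran from -0.097 to 0.73 when replicates were left out. The number of arrays, 12 on 3 slides, limits the precision, and Slc45a2, Gpr143, Oca2 and Tyr are the dimmest of the 9. From processed signals the ratios of Slc45a2, Oca2 and Gpr143 were 1.52, 1.50 and 1.42, against 0.49, 0.95 and 0.89.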
